A study of Mus musculus with 15 samples.

Results

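The SLAM family receptors and their signalling partners were followed in sorted invariant natural killer T (iNKT) cells of mouse lymphoid tissues. The genes examined were *Slamf1*, *Slamf6*, *Slamf7*, *Ly9*, *Cd84* and *Cd48*, which encode cell surface receptors, *Sh2d1a*, which encodes the adaptor SAP, and *Fyn*, which encodes the kinase that SAP recruits. These 8 genes were chosen by name, with earlier results of these data known. They were found among the 48795 genes in the RNAseq tables by matching Ensembl identifiers to symbols. All 8 passed the filter on low counts that left 13600 genes for testing. iNKT cells came from 6-week old wild type C57BL/6 mice with no treatment, and were sorted as cells that bound the CD1d tetramer, carried TCRβ and lacked B220, CD11b, CD11c and CD8. There were 4 samples each from thymus, spleen and mesenteric lymph node (mLN) and 3 from inguinal lymph node (iLN). All groups shared strain, genotype and age, and tissues were compared. Lymph nodes, but not spleen or thymus, were digested with enzymes before staining. Differences of lymph nodes from spleen or thymus thus cannot be told apart from preparation. The labels do not say whether a replicate was 1 mouse or a pool, so that p-values measure the spread between these samples. Replicates 1 and 2 were in the second batch of the labels (7 samples) and replicates 3 and 4 in the first (8 samples), and iLN replicate 1 was not analysed here.

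SLAM receptors sit on blood cells, and most of them bind the same receptor on a neighbouring cell. Among the receptors examined here CD48 is the exception. It is held in the membrane by a lipid anchor, has no cytoplasmic tail and binds CD2 and 2B4. The tails of the others examined carry tyrosine motifs named immunoreceptor tyrosine-based switch motifs (ITSM). SAP binds such motifs in most of these receptors through its SH2 domain, and SAP in turn brings in FYN. In the thymus, iNKT cell precursors are selected by other thymocytes rather than by epithelium, and SLAMF1 and SLAMF6 on both partners, acting through SAP and FYN, are needed for that selection. SLAMF7 is known to signal through the related adaptor EAT-2 in NK cells.

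The ITSM is the feature of the receptor sequence that SAP can bind. Its coding sites are shown here for the 5 receptors with a signalling tail among the genes examined. Coding sequences were read from the GENCODE M21 transcripts on GRCm38, and the motif was searched as a threonine, any residue, a tyrosine, any pair of residues, and a valine or isoleucine. Each site is written 5′ to 3′ along the coding strand, with the codons for threonine, tyrosine and valine or isoleucine in capitals.
Slamf1 site 1: ACTattTATgcccaaGTA
Slamf1 site 2: ACAgttTATgccagtGTG
Slamf6 site 1: ACTgtgTATgcacaaGTC
Slamf6 site 2: ACAattTACtccataGTT
Ly9 site 1: ACTccaTATgataaaGTG
Ly9 site 2: ACAatcTACtgctctGTG
Cd84 site 1: ACAgtaTATgctgtaGTT
Cd84 site 2: ACCattTATtcctcaGTG
Slamf7 site 1: ACAtttTATtccactGTG
*Slamf1*, *Slamf6*, *Ly9* and *Cd84* held 2 sites each and *Slamf7* held 1. *Cd244a*, a receptor gene outside the genes examined, held 4 matches, which are not shown. Of 21600 mouse coding sequences searched in the same way, 1698 (7.9%) held at least 1 match and 129 (0.6%) at least 2. Each site shown lay within 1 coding exon, toward the 3′ end of the coding sequence. Those of *Slamf6* began at codons 293 and 317 of 331 (chr1:171939437-171939454 and chr1:171941664-171941681, plus strand), and that of *Slamf7* at codon 300 of 333 (chr1:171636327-171636344, minus strand). *Slamf1* had its sites at codons 286 and 333 of 343 (chr1:171792339-171792356 and chr1:171799588-171799605, plus strand), *Cd84* at codons 263 and 298 of 329 (chr1:171884605-171884622 and chr1:171885601-171885618, plus strand) and *Ly9* at codons 585 and 623 of 654 (chr1:171593912-171593929 and chr1:171593438-171593455, minus strand). *Cd48* held 1 match, at codon 105 of 240, which is no ITSM in the usual sense, since the protein has no tail.

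All 6 receptor genes lie within 1 cluster on chromosome 1 (GRCm38, chr1:171559193-172590568), together with *Cd244a*, *Slamf8* and *Slamf9*. *Ly9* spans chr1:171588624-171607410 (minus strand), *Slamf7* chr1:171632403-171653035 (minus strand), *Cd48* chr1:171682009-171705258, *Slamf1* chr1:171767127-171801184, *Cd84* chr1:171839697-171890718 and *Slamf6* chr1:171917515-171953170 (the last 4 on the plus strand). Their Ensembl identifiers are ENSMUSG00000004707, ENSMUSG00000038179, ENSMUSG00000015355, ENSMUSG00000015316, ENSMUSG00000038147 and ENSMUSG00000015314, in the same order. *Sh2d1a* lies on chromosome X (ENSMUSG00000005696, chrX:42502453-42529330, plus strand) and *Fyn* on chromosome 10 (ENSMUSG00000019843, chr10:39368855-39565381, plus strand). Some of these genes share bases with another gene. *Ly9* overlaps *Cd244a* on the opposite strand over 18787 bases, *Slamf6* and *Slamf7* each overlap an antisense gene (over 1842 and 1144 bases), *Sh2d1a* overlaps *Tenm1* over 1465 bases, and *Fyn* overlaps *Gm16364* over 1992 bases and *Gm16365* over 6886, all on opposite strands. Whether the counting used strand is not given in the sources used here, so that fragments of such pairs may be exchanged. The overlapping genes held few counts. Over the 15 samples *Gm37065* had 297 against 9117 of *Slamf6*, *Gm37787* had 445 against 16388 of *Slamf7*, *Cd244a* had 228 against 11896 of *Ly9*, *Tenm1* had 367 against 3305 of *Sh2d1a*, and *Gm16364* had 567 against 12216 of *Fyn*.

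Expected counts, RSEM's estimates of fragments per gene, summed to between 1152702 (thymus replicate 2) and 8670570 (spleen replicate 1) per sample, with a median of 5327351. Values below are in normalized CPM, counts scaled to library size after TMM adjustment, unless TPM, which also corrects for transcript length, is named. Tissues were compared with edgeR's quasi-likelihood test over all 13600 genes, with batch in the model, and calls required both an adjusted p (Benjamini-Hochberg) under 0.01 and a fold change over 1.5, or the former alone in the test over 4 tissues. As a check of the cells, the 6 iNKT and T cell markers (*Zbtb16*, *Cd3d*, *Cd3e*, *Cd3g*, *Trac* and *Trav11*) were present in every sample, with summed TPM between 3962 and 9323. Spleen replicate 1 stood apart: it held *Cd79a* at 25.0 TPM, *Ms4a1* at 18.2 TPM and *Lyz2* at 63.5 TPM, against at most 1.86, 2.45 and 17.5 TPM in the other samples, although the sort excluded B220+ and CD11b+ cells. The 5 B cell markers used here summed to 304 TPM there, against 91.3 to 216 elsewhere, most of it *Ighm*, and the 5 myeloid markers to 66.4 against at most 18.3. Spleen replicate 2 shared some of these markers, with *Pax5* at 8.14 TPM (7.42 in replicate 1, at most 0.45 outside these 2 samples) and *Cd14* at 3.40 TPM (0 in every other sample). Since B cells and myeloid cells also express SLAM receptors, the tests against spleen were repeated without each of these 2 libraries. *Slamf1*, *Cd84*, *Ly9*, *Cd48*, *Sh2d1a* and *Fyn* were called against spleen neither with nor without them, and the values of *Slamf6* and *Slamf7* are given below. Red cell markers (*Hbb-bs*, *Hbb-bt*, *Hba-a1*, *Hba-a2* and *Alas2*) summed to between 68.0 and 340 TPM in the spleen samples. They reached at most 66.0 TPM in thymus, 16.8 in iLN and 3.90 in mLN. Since every spleen sample held them, leaving out 1 library does not remove this difference, and its part in the values was not tested. In bulk samples, fewer cells of a type and less RNA per cell cannot be told apart.

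*Slamf6* and *Slamf7* were the members called between tissues with edgeR. *Slamf6* was highest in mLN, where it exceeded spleen 2.74-fold, thymus 5.18-fold and iLN 5.93-fold. *Slamf7* was lower in both lymph nodes than in spleen and thymus, by 2.61- to 3.21-fold for the 4 pairs of tissues. None of the remaining 6 genes was called in any comparison. The plot of normalized CPM by sample shows all 8 genes.

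**Figure D1:**
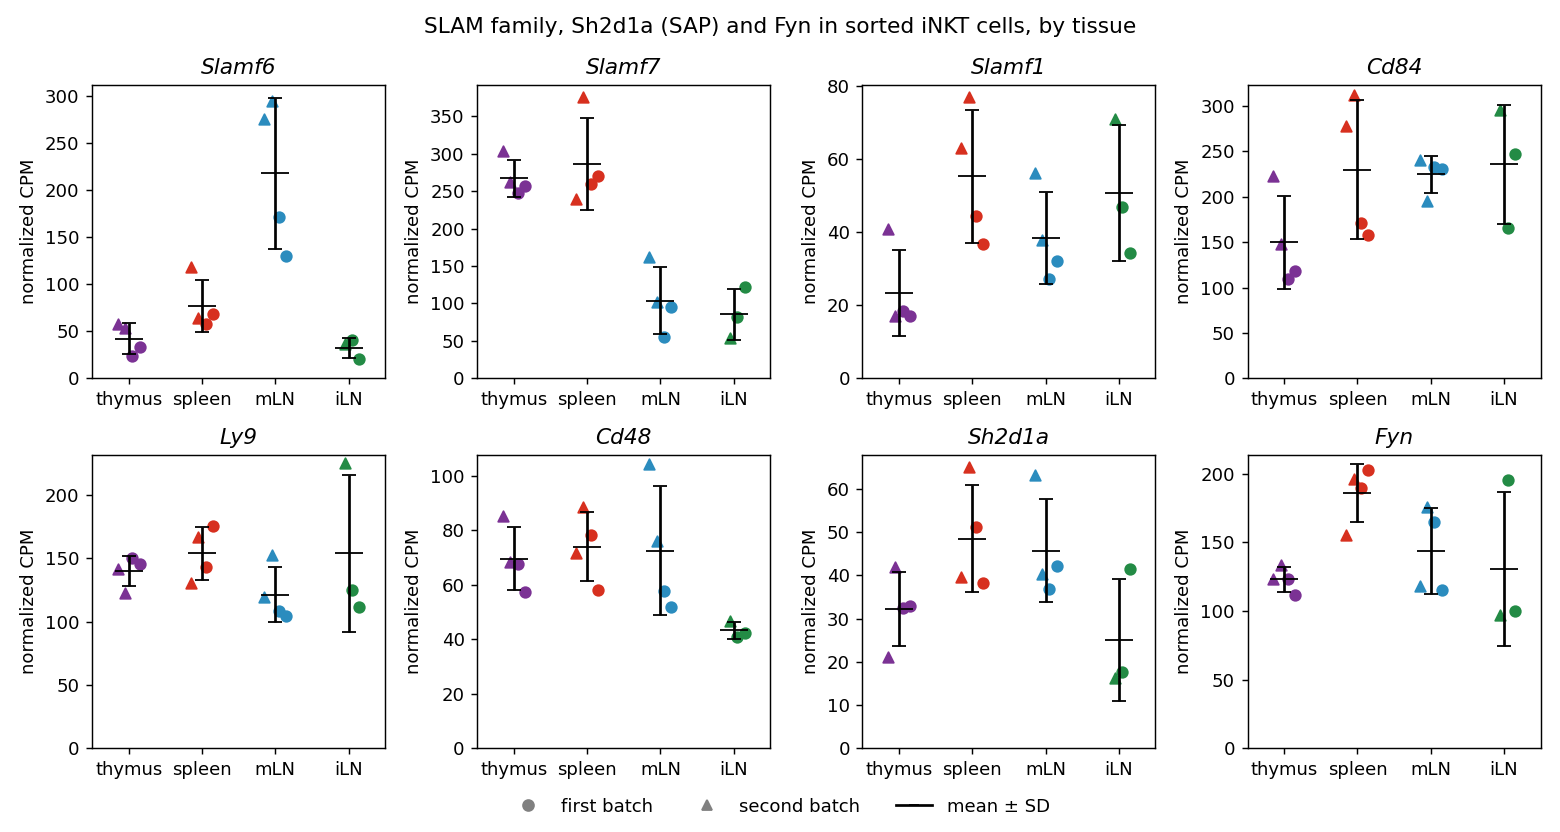
Normalized CPM (vertical axis, from 0, with its own scale in each panel) of the 8 genes in each sample of thymus, spleen, mLN and iLN; circles are first batch samples, triangles second batch samples, and black bars the mean ± SD. The 4 mLN samples of *Slamf6*, from 129.8 to 295, lie above all other samples, and the 7 lymph node samples of *Slamf7*, from 53.3 to 163, lie below the 8 spleen and thymus samples.

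In counts, mLN against spleen called 2 of the 8 genes (of all genes tested, 0.654% were called) and mLN against thymus called the same 2 (background 1.6%). iLN against spleen called 1 (background 1.55%), iLN against thymus 1 (background 1.5%), iLN against mLN 1 (background 0.471%), and lymph nodes against spleen and thymus 1 (background 1.72%). The test over 4 tissues together called 2 (background 3.38%). Thymus against spleen called 0 with edgeR (background 1.32%), although 4 of the 8 had an unadjusted p under 0.05 (10.6% of all genes tested did), and DESeq2 called 2, *Slamf1* and *Slamf6* (background 2.85%). DESeq2 also called 2 for iLN against spleen, *Slamf6* and *Slamf7* (background 4.34% of the 12809 genes that DESeq2 gave an adjusted p there), and 2 for iLN against thymus, *Slamf1* and *Slamf7* (background 3.47%). The median log2 fold change of the 8 genes for thymus against spleen was −0.60, against −0.01 for all genes tested. For iLN against spleen it was −0.62 against 0.01, and for mLN against spleen −0.22 against 0.00.

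**Figure D2:**
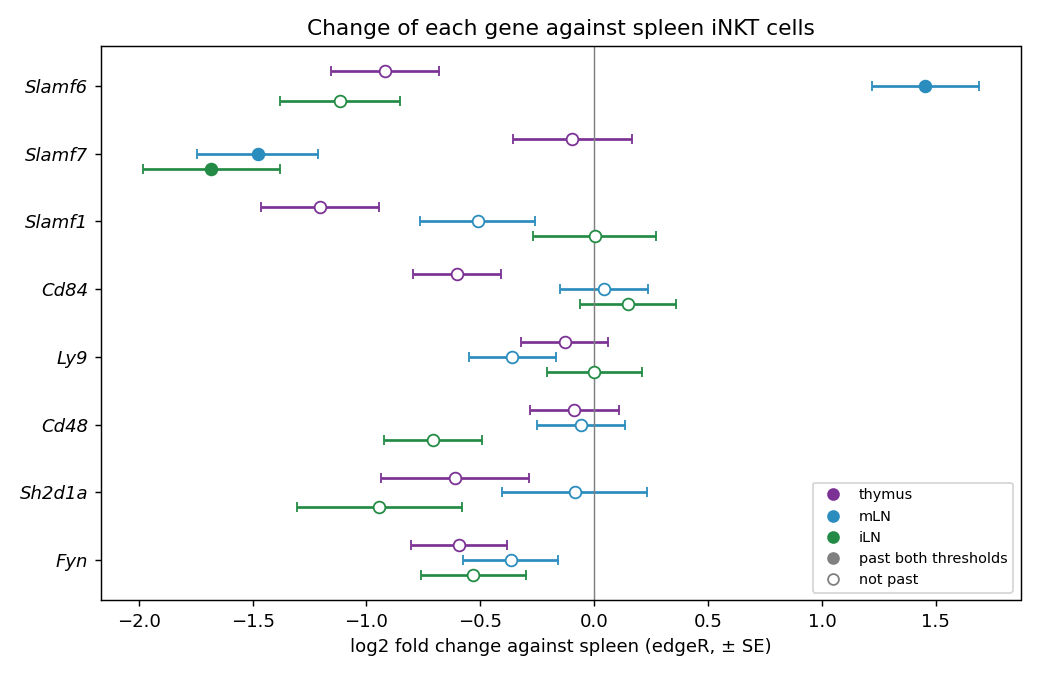
Log2 fold change of each gene against spleen (horizontal axis, edgeR estimate ± SE) for thymus, mLN and iLN, with filled points for genes past both thresholds. *Slamf6* in mLN (1.45) and *Slamf7* in mLN (−1.48) and iLN (−1.68) are the filled points.

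*Slamf6* encodes Ly108, a receptor that binds itself on the neighbouring cell. In mLN its values were 276, 295, 171 and 129.8 (replicates 1 to 4). Spleen gave 118, 64.0, 57.8 and 68.3, thymus 58.0, 53.7, 24 and 32.8, and iLN 36.1, 40.6 and 20.4 (replicates 2 to 4). The lowest mLN sample was above the highest sample of any other tissue, while the ranges of thymus and iLN overlapped. Means were 218 ± 80.0 in mLN (SD, n = 4), 77.0 ± 27.6 in spleen (n = 4), 42.1 ± 16.3 in thymus (n = 4) and 32.4 ± 10.6 in iLN (n = 3).

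mLN exceeded spleen by 1.45 on the log2 scale (SE 0.23, edgeR adjusted p = 0.00331) and thymus by 2.37 (SE 0.24, adjusted p = 9.05e-06). For iLN against mLN the log2 fold change was −2.57 (SE 0.28, adjusted p = 6.21e-05). The order mLN, spleen, thymus, iLN thus had 1 gap past the thresholds, the first. Thymus against spleen gave −0.92 (SE 0.24, adjusted p = 0.0447), iLN against spleen −1.12 (SE 0.26, adjusted p = 0.0201) and iLN against thymus −0.20 (SE 0.26, adjusted p = 0.771), none of them called with edgeR. DESeq2 called the first (adjusted p = 0.00934) and the second (0.00177). Each batch showed the excess of mLN over spleen on its own, with log2 differences of 1.23 in the first and 1.7 in the second. Over thymus the excess was 2.37 in the first batch and 2.33 in the second, and iLN minus mLN was −2.33 and −2.95. The last of these rests on 1 iLN sample. Without spleen replicate 1, mLN exceeded spleen by 1.58 (adjusted p = 0.00704), thymus against spleen gave −0.78 (adjusted p = 0.197) and iLN against spleen −1.01 (adjusted p = 0.0574). The mLN against spleen call was lost when spleen replicate 2 (adjusted p = 0.0153), 3 (0.0144) or 4 (0.0102) or mLN replicate 2 (0.0102) or 3 (0.0186) was left out, with log2 fold changes from 1.27 to 1.53. The mLN against thymus and iLN against mLN calls were kept in all 15 fits that left out a library. The call of iLN against spleen was gained without spleen replicate 2 (adjusted p = 0.00921) or iLN replicate 3 (0.00317).

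Markers of iNKT subsets are given beside these values, since such subsets were not separated by the sort. The 5 NKT2 markers (*Il4*, *Il17rb*, *Gata3*, *Plac8* and *Ccr4*) summed to between 247 and 301 TPM in mLN, between 124 and 199 in spleen, between 102 and 199.9 in thymus and between 166 and 270.3 in iLN, and none of the 5 was at 0 in every sample. iLN, where *Slamf6* was lowest, had NKT2 marker sums of 202, 166 and 270.3 TPM (replicates 2 to 4). Only replicate 4 reached the mLN range, and the mean was 213 TPM in iLN against 274 in mLN, in the same direction as *Slamf6*. By gene the markers differed. *Plac8* was at 31.6 to 123 TPM in mLN and at 4.47 to 16.4 in iLN, without overlap and in the same direction as *Slamf6*, while *Il4*, *Il17rb*, *Gata3* and *Ccr4* overlapped between mLN and iLN. The part of subset make-up in the *Slamf6* difference was not tested.

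*Slamf7* encodes CRACC, a receptor known from NK cells and plasma cells. Thymus samples held 303, 262, 247 and 257 normalized CPM and spleen samples 239, 376, 259.6 and 270.3. In mLN the values were 163, 102, 55.3 and 95.7, and in iLN 53.3, 82.1 and 122. No lymph node sample reached the lowest spleen or thymus sample, and the ranges of mLN and iLN overlapped, as did those of thymus and spleen. Means were 267 ± 24.8 in thymus, 286 ± 61.1 in spleen, 104 ± 44.3 in mLN (SD, n = 4 each) and 85.7 ± 34.3 in iLN (SD, n = 3).

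Lymph nodes together were lower than spleen and thymus, 2.89-fold or −1.53 on the log2 scale (SE 0.20, edgeR adjusted p = 0.000128). This call was kept in all 15 fits that left out a library, and the within-batch differences were −1.59 in the first batch and −1.80 in the second. By pairs, mLN against spleen gave −1.48 (SE 0.27, adjusted p = 0.00654), iLN against spleen −1.68 (SE 0.30, adjusted p = 0.00282), mLN against thymus −1.38 (SE 0.27, adjusted p = 0.00475) and iLN against thymus −1.59 (SE 0.30, adjusted p = 0.00466). Thymus against spleen (−0.10, SE 0.26, adjusted p = 0.96) and iLN against mLN (−0.20, SE 0.30, adjusted p = 0.825) were not called. Within batches, mLN minus spleen was −1.85 in the first and −1.21 in the second, and iLN minus spleen −1.40 and −2.47. mLN minus thymus was −1.78 and −1.13, and iLN minus thymus −1.32 and −2.38. The second batch held 1 iLN sample.

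The pairwise calls of *Slamf7* depended on single libraries, more so for mLN against spleen than for iLN against spleen. mLN against spleen was no longer called when any 1 of the 4 thymus, the 4 spleen or mLN replicates 2, 3 and 4 was left out, with adjusted p between 0.0101 (without spleen replicate 1) and 0.0348 (without spleen replicate 2). mLN against thymus lost its call without any 1 of the 4 thymus samples or mLN replicates 2, 3 and 4 (adjusted p from 0.0146 to 0.0215). iLN against thymus lost it without any 1 of the 4 thymus samples or iLN replicates 2 and 3 (0.0108 to 0.0321), and iLN against spleen without spleen replicate 4 (0.0115) or iLN replicates 2 (0.0225) and 3 (0.0129). Without spleen replicate 1, iLN against spleen gave −1.78 (adjusted p = 0.00371), and lymph nodes against spleen and thymus gave −1.59 (adjusted p = 0.000191). The log2 fold changes of *Slamf7* where a call was lost stayed between −1.68 and −1.17.

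The summed level of the NKT1 markers was lower in lymph nodes, as was *Slamf7*. The 6 genes *Tbx21*, *Il2rb*, *Klrb1c*, *Xcl1*, *Nkg7* and *Ifng* summed to between 1743 and 2693 TPM in thymus and between 1334 and 2009 in spleen. Their sums were between 825 and 1290 in mLN and between 857 and 940.3 in iLN, so that lymph nodes did not overlap with the other tissues here either. Of the single genes only *Klrb1c* kept all lymph node samples (86.7 to 140.0 TPM) below all others (150.9 or more). *Ifng* had a mean of 10.2 TPM in thymus and 19.0 in mLN, against the direction of *Slamf7*, and *Tbx21* in mLN (9.74 to 41.7) overlapped thymus and spleen. NKT17 markers (*Il23r*, *Il17re*, *Ccr6* and *Il1r1*) summed to between 92.9 and 229 TPM in iLN and to at most 38.7 in any other sample. All 6 NKT1 and all 4 NKT17 markers had counts. The share of *Slamf7* that goes with subset make-up was not tested. The 3 NK cell markers *Ncr1*, *Eomes* and *Klra8* summed to at most 4.32 TPM in any sample. Of the 3 plasma cell markers, *Sdc1* was at 26.0 to 68.5 TPM in iLN and at most 7.40 elsewhere, while *Jchain* and *Prdm1* in iLN lay within the range of the other tissues. The NKT17 marker sum was highest in the same iLN samples, and its part in the *Sdc1* values was not tested. Lymph nodes, but not spleen or thymus, were digested with enzymes before staining, so that tissue and preparation cannot be told apart.

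**Figure D3:**
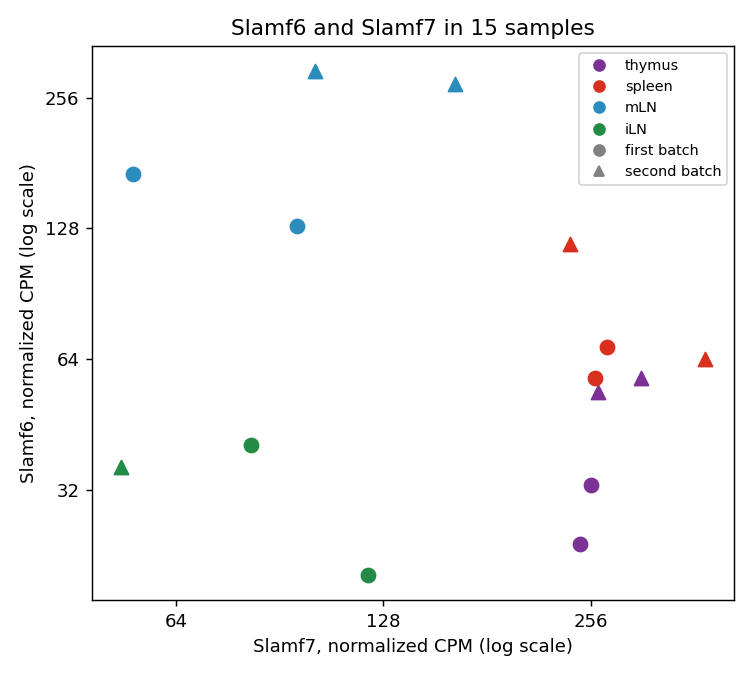
Normalized CPM of *Slamf7* (horizontal) and *Slamf6* (vertical) in the 15 samples, on log axes; colours mark tissues and symbols batches. mLN samples lie at the top left, with low *Slamf7* and high *Slamf6*, iLN samples at the bottom left, and spleen and thymus samples share the right side, with *Slamf7* at 239 or more.

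*Slamf1* encodes SLAM (CD150), which like SLAMF6 binds itself between thymocytes during iNKT cell selection. Thymus samples held 40.9, 16.9, 18.5 and 17.1 normalized CPM, and thymus replicate 1 stood above its group. The other tissues were between 27.3 and 76.9. Spleen gave 62.9, 76.9, 44.4 and 36.6, mLN 56.0, 37.7, 27.3 and 32.2, and iLN 70.9, 46.9 and 34.4. Means were 23.3 ± 11.7 in thymus, 55.2 ± 18.2 in spleen, 38.3 ± 12.6 in mLN (SD, n = 4 each) and 50.7 ± 18.5 in iLN (SD, n = 3). On the log2 scale, thymus against spleen gave −1.20 (SE 0.26, edgeR adjusted p = 0.0125) and iLN against thymus 1.21 (SE 0.28, adjusted p = 0.0186), both short of the 0.01 threshold, and DESeq2 called both (adjusted p = 0.00037 and 0.00102). Without thymus replicate 1, thymus against spleen gave −1.45 (adjusted p = 0.00819) and was called, and without spleen replicate 1 it gave −1.25 (adjusted p = 0.0239). The difference of thymus and spleen was −1.14 in the first batch and −1.37 in the second. mLN against thymus gave 0.69 (adjusted p = 0.203) and iLN against spleen 0.00 (SE 0.27, adjusted p = 0.998). As a measure of other thymocytes in the thymus samples, the 6 markers of double-positive thymocytes or CD8 T cells summed to between 5.05 and 39.7 TPM there and to between 2.22 and 11.5 elsewhere, and *Rag1* was at 0.85 to 5.50 TPM in thymus and at most 0.03 elsewhere; their part in the thymus values was not tested.

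*Cd84* encodes another receptor that binds itself, with 2 ITSM. Thymus samples were at 223, 148, 109 and 119 normalized CPM, spleen at 278, 313, 171 and 158, mLN at 240.3, 195, 233 and 230.4, and iLN at 295, 166 and 247. Thymus reached below the other tissues in 3 of its 4 samples, and thymus replicate 1 lay within their range. The log2 fold change was −0.60 (SE 0.19, edgeR adjusted p = 0.143) for thymus against spleen, 0.65 (SE 0.19, adjusted p = 0.0941) for mLN against thymus and 0.75 (SE 0.21, adjusted p = 0.0559) for iLN against thymus, none of them called. mLN and iLN differed from spleen by 0.04 (SE 0.19) and 0.15 (SE 0.21).

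*Ly9* encodes SLAMF3, which also binds itself. Its samples lay between 105 and 225 normalized CPM, and the 4 ranges overlapped. Means were 140.0 ± 12 in thymus, 154 ± 20.9 in spleen, 121 ± 21.8 in mLN (SD, n = 4 each) and 154 ± 61.9 in iLN (SD, n = 3), where replicate 2 (225) stood above replicates 3 (125) and 4 (112). No comparison reached an unadjusted p of 0.05. The largest estimates were for iLN against mLN, 0.36 (SE 0.21, edgeR adjusted p = 0.465), and mLN against spleen, −0.36 (SE 0.19, adjusted p = 0.48). iLN minus spleen was −0.42 in the first batch and 0.60 in the second, which held 1 iLN sample.

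*Cd48* was at 46.7, 40.9 and 42.2 normalized CPM in iLN. These 3 values lay below all 12 other samples, which were between 52.0 (mLN replicate 4) and 104 (mLN replicate 1). Means were 43.3 ± 3.0 in iLN (SD, n = 3), 69.6 ± 11.5 in thymus, 74 ± 12.7 in spleen and 72.5 ± 23.5 in mLN (SD, n = 4 each). Log2 fold changes were −0.71 against spleen (SE 0.21, edgeR adjusted p = 0.0774), −0.62 against thymus (SE 0.22, adjusted p = 0.137) and −0.65 against mLN (SE 0.22, adjusted p = 0.154), so that no pair was called although the samples did not overlap. Within batches, iLN minus spleen was −0.68 in the first and −0.76 in the second, which held 1 iLN sample. A gene with no assigned protein, *Gm37010*, lies inside *Cd48* on the same strand over 1704 bases and held 1010 counts against 5777 of *Cd48*.

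*Sh2d1a* gives SAP, the adaptor that links the ITSM to FYN and without which iNKT cells fail to develop. Spleen samples were at 39.6, 65.1, 51.1 and 38.2 normalized CPM, mLN at 63.1, 40.3, 36.8 and 42.2, thymus at 21.1, 41.9, 32.5 and 33, and iLN at 16.1, 17.6 and 41.4. The iLN group was uneven, with replicates 2 and 3 below all other samples and replicate 4 within their range. iLN against spleen gave −0.94 (SE 0.36, edgeR adjusted p = 0.178), iLN against mLN −0.86 (SE 0.36, adjusted p = 0.293) and thymus against spleen −0.61 (SE 0.33, adjusted p = 0.558). Without iLN replicate 4 the iLN estimates were −1.53 against spleen (adjusted p = 0.0238) and −1.43 against mLN (0.0598), and without iLN replicate 2 they were −0.61 (0.497) and −0.53 (0.617). None was called, and these standard errors were the largest of the 8 genes, so that a change of this size was not separable from the spread here. *Sh2d1b1* and *Sh2d1b2*, which encode the EAT-2 adaptors, held 2 and 7 counts over all 15 samples.

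*Fyn* was at 155, 196, 189.9 and 203 normalized CPM in spleen and at 123, 134, 123 and 112 in thymus, without overlap. mLN samples were at 119, 176, 165 and 115, and iLN samples at 97.2, 196 and 99.7, so that both overlapped thymus and spleen. Thymus against spleen gave −0.59 (SE 0.21, edgeR adjusted p = 0.212), a log2 difference of −0.74 in the first batch and −0.44 in the second. iLN against spleen gave −0.53 (SE 0.23, adjusted p = 0.249) and mLN against spleen −0.37 (SE 0.21, adjusted p = 0.523). The iLN estimate depended on single libraries, with −0.92 (adjusted p = 0.0178) without iLN replicate 3 and −0.33 (adjusted p = 0.595) without iLN replicate 2. The test over 4 tissues gave adjusted p = 0.244 for *Fyn*, 0.265 for *Sh2d1a*, 0.158 for *Cd48*, 0.0867 for *Cd84*, 0.566 for *Ly9* and 0.0186 for *Slamf1*, against 1.88e-06 for *Slamf6* and 0.000426 for *Slamf7*.

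Compared per length, in TPM, the receptors did not hold the same ranks in the 4 tissues. In thymus and spleen *Slamf7* had the highest mean of the 6 receptors, at 130.1 ± 17.9 and 157 ± 56.3 TPM (SD, n = 4). In mLN that place was held by *Slamf6*, at 129.5 ± 53.1 TPM (n = 4), and in iLN by *Cd84*, at 113 ± 53.2 TPM (n = 3). By sample, *Slamf7* was highest in 4 of 4 thymus and 3 of 4 spleen samples. *Slamf6* was highest in 2 of 4 mLN samples, with *Cd84* highest in the other 2, and in iLN *Ly9* was highest in 2 samples and *Cd84* in 1. *Slamf1* had the lowest mean in thymus (8.43 ± 5.28 TPM), spleen (23.1 ± 11.6) and mLN (15.1 ± 5.03). In iLN *Slamf6* (20.6 ± 2.79) and *Slamf1* (21.1 ± 8.10) were both low and within each other's spread. *Sh2d1a* means ran from 42.6 ± 33.8 TPM in iLN to 69.6 ± 30.7 in spleen and *Fyn* means from 82.3 ± 34.5 in thymus to 106 ± 26.2 in spleen, all within the spread of the other tissues. TPM also depends on RSEM's estimate of a gene's mean transcript length, which ran from 1880 to 3399 bases between samples for *Slamf6* and from 2167 to 3865 for *Slamf7*.

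The make-up of the receptor transcripts was taken as the share of each gene in the summed TPM of 7 receptors (the 6 above and *Cd244a*), as a description with no test. The sum itself was between 222 and 688 TPM per sample, and the ranges of the 4 tissues overlapped. *Slamf6* made up 27.4% ± 6.09 of it in mLN (SD, n = 4), between 20.5% and 33.2%, and at most 13.1% in any other sample. *Slamf7* made up 33.8% ± 5.77 in thymus and 31.5% ± 6.72 in spleen (n = 4 each), against 9.34% ± 2.86 in mLN and 13.9% ± 6.12 in iLN (n = 3). In iLN, where both were low, *Cd84* made up 30.7% ± 7.17 and *Ly9* 26.7% ± 8.25. *Cd48* kept a mean share between 16.2% (iLN) and 22.3% (thymus). Shares of normalized counts in place of TPM put *Cd48* at 7.30% to 9.91% and *Cd84* at 20.9% to 38.8%, since the *Cd48* transcript is shorter than the others.

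**Figure D4:**
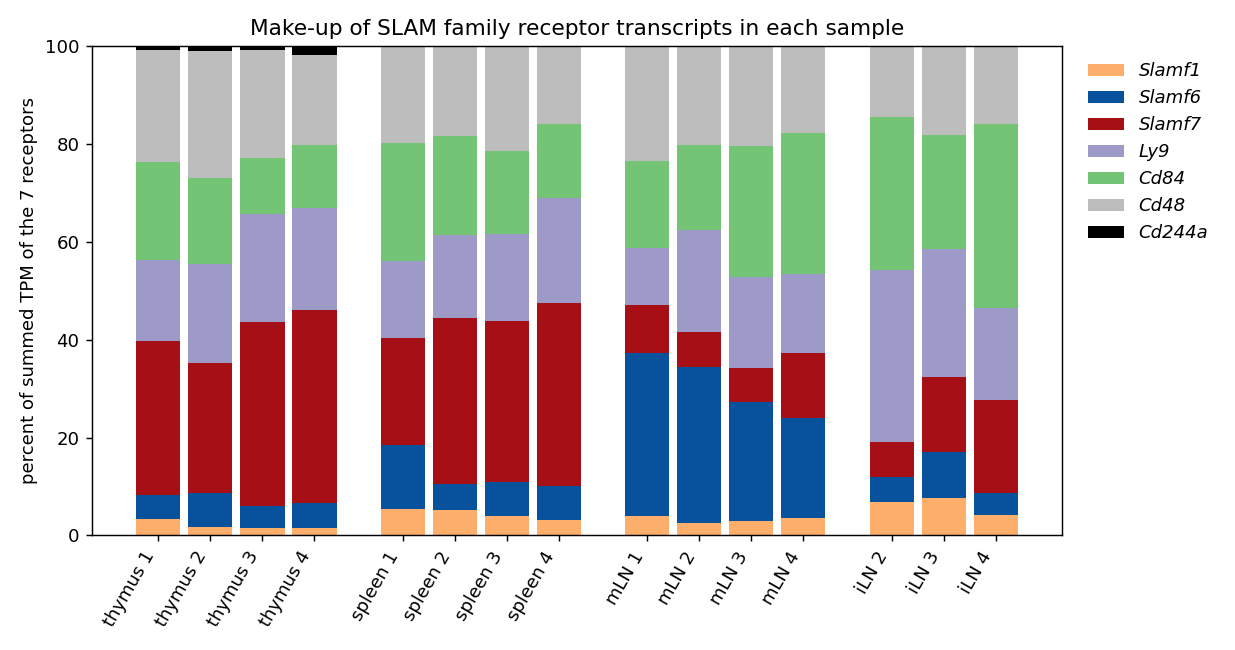
Share of each of 7 SLAM family receptors in their summed TPM (vertical axis, percent) for each of the 15 samples, grouped by tissue. *Slamf6* (dark blue) takes 20.5% to 33.2% in the mLN samples, *Slamf7* (dark red) takes 21.9% to 39.3% in thymus and spleen, and *Cd244a* (black) is visible in thymus.

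Of the other SLAM family, ligand and adaptor genes, 2 of 6 passed the filter, *Cd244a* and *Cd2*. *Cd244a*, which encodes 2B4, a receptor for CD48, was found in thymus, at 11.2, 7.35, 6.61 and 17.8 normalized CPM. Outside the thymus it held 1 count over the 4 spleen samples (in spleen replicate 1), 3, 0, 3 and 2 counts in the mLN samples and none in the 3 iLN samples. It passed the filter only through the thymus samples, so that no test or fold is given for it. *Ly9*, which lies wholly within *Cd244a* on the opposite strand, was called in no comparison. *Cd2*, the other receptor for CD48, lay between 89.2 and 227 normalized CPM and was called in no comparison (4 tissues, adjusted p = 0.556). *Slamf8* and *Slamf9*, receptors of myeloid cells, held no counts in any sample.

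Downstream of the receptors, genes were grouped in lists by role, and these lists were chosen with earlier results of these data known. Among the 7 Src family kinases beside *Fyn*, 6 passed the filter and edgeR called 0 in each of the 8 comparisons. Of all genes, 0.471% to 3.38% were called, by comparison, so that 0 of 6 is near the background. At most 2 of the 6 had an unadjusted p under 0.05 in any comparison, against 10.6% to 19.4% of all genes. DESeq2 called *Blk* in iLN against spleen (background 4.34%), iLN against thymus (background 3.47%) and over 4 tissues (1002 of 13600 genes called). *Blk*, a kinase known from B cells and γδ T cells, was at 25.1, 27.6 and 49.4 normalized CPM in iLN and at most 10.01 in any other sample, and the test over 4 tissues gave adjusted p = 0.0236. The NKT17 marker sum was highest in the same 3 samples (above), and its part in the *Blk* values was not tested. *Lck*, the main Src family kinase of T cells, lay between 130.1 and 311 normalized CPM (adjusted p = 0.413). Of 11 genes downstream of SAP and FYN, edgeR again called 0 in each comparison, which is also near the background. At most 3 (27.3%) had an unadjusted p under 0.05. This was so in mLN against thymus (13.5% of all genes) and in lymph nodes against spleen and thymus (17.6% of all genes). DESeq2 called *Malt1* in iLN against thymus and over 4 tissues, with the backgrounds given for *Blk*. *Malt1*, a protease of the NF-κB pathway, had a mean of 107 ± 16 in thymus (SD, n = 4) and 55.3 ± 18.3 in iLN (n = 3), −0.95 on the log2 scale (SE 0.23, edgeR adjusted p = 0.0238). *Fyb*, an adaptor that binds FYN, gave adjusted p = 0.147 over 4 tissues.

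Of 9 inhibitory enzymes and adaptors tested, 3 were called over the 4 tissues, against 3.38% of all genes. *Ptpn6* encodes SHP-1, a phosphatase that ITSM can bind in place of SAP. It was at 129, 201, 244 and 272 normalized CPM in thymus, and between 51.1 and 111 in all other samples, with no overlap. The log2 fold change was 1.75 for thymus against spleen (SE 0.22, edgeR adjusted p = 9.47e-05), −1.44 for mLN against thymus (SE 0.22, adjusted p = 0.000551) and −1.42 for iLN against thymus (SE 0.24, adjusted p = 0.00182). Of these, the last was lost without thymus replicate 4 (adjusted p = 0.0104), and thymus against spleen was called without spleen replicate 1 (1.83, adjusted p = 0.000387) and without spleen replicate 2 (1.75, adjusted p = 0.000663).

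*Rasa1*, which encodes a Ras GTPase-activating protein, was at 221, 219, 168 and 176 in mLN and at 151, 139, 83.2 and 72.0 in spleen (log2 fold change 0.87, SE 0.16, edgeR adjusted p = 0.00638). *Pag1*, a membrane adaptor that brings the inhibitory kinase CSK to Src family kinases, was at 531, 398 and 392 in iLN and at 293, 287, 205 and 185 in spleen (0.98, SE 0.18, adjusted p = 0.00334). For thymus against spleen *Pag1* gave 0.79 (edgeR adjusted p = 0.0108) and was not called with edgeR. DESeq2 called it there, and called both *Rasa1* and *Pag1* in iLN against mLN. *Dok2*, an inhibitory docking protein, was between 24.5 and 59.5 in lymph nodes and between 41.6 and 71.4 in spleen and thymus (−0.81, SE 0.17, adjusted p = 0.00827), with overlap. These calls depended on single libraries. That of *Rasa1* was lost without thymus replicate 3, any 1 of the 4 spleen samples or mLN replicates 2, 3 and 4 (adjusted p from 0.0101 to 0.0381), and that of *Pag1* without spleen replicates 1, 2 and 4 or any 1 of the 3 iLN samples (0.0101 to 0.0187). *Dok2*, with 1 library left out, kept its call only without mLN replicate 4 or iLN replicate 3 (otherwise 0.0117 to 0.025). *Csk*, *Ptpn11*, *Inpp5d*, *Dok1* and *Ptprc* were called in no comparison.

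Among 5 transcription factors tied to SLAM-dependent iNKT cell selection, *Runx1* was lower in thymus, at 126, 130.1, 101.4 and 95.4 normalized CPM, than in any other sample (166 to 331). Its log2 fold change was −1.03 for thymus against spleen (SE 0.14, edgeR adjusted p = 0.000231), 1.13 for mLN against thymus (SE 0.14, adjusted p = 7.3e-05) and 1.15 for iLN against thymus (SE 0.15, adjusted p = 0.00016). *Zbtb16*, which encodes PLZF, the defining factor of iNKT cells, was called higher in lymph nodes than in spleen and thymus (0.71, SE 0.14, adjusted p = 0.00538), with 179 to 269 against 78.9 to 178. This call was kept without spleen replicate 1, spleen replicate 2, mLN replicate 4 or iLN replicate 2 and was lost without any other single library (adjusted p from 0.0104 to 0.02). *Runx1* was called for thymus against spleen in each of the 15 fits that left out a library. *Myb*, *Tcf12* and *Egr2* were not called with edgeR, while DESeq2 called *Myb* and *Egr2* for thymus against spleen and *Egr2* for mLN against spleen.

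**Figure D5:**
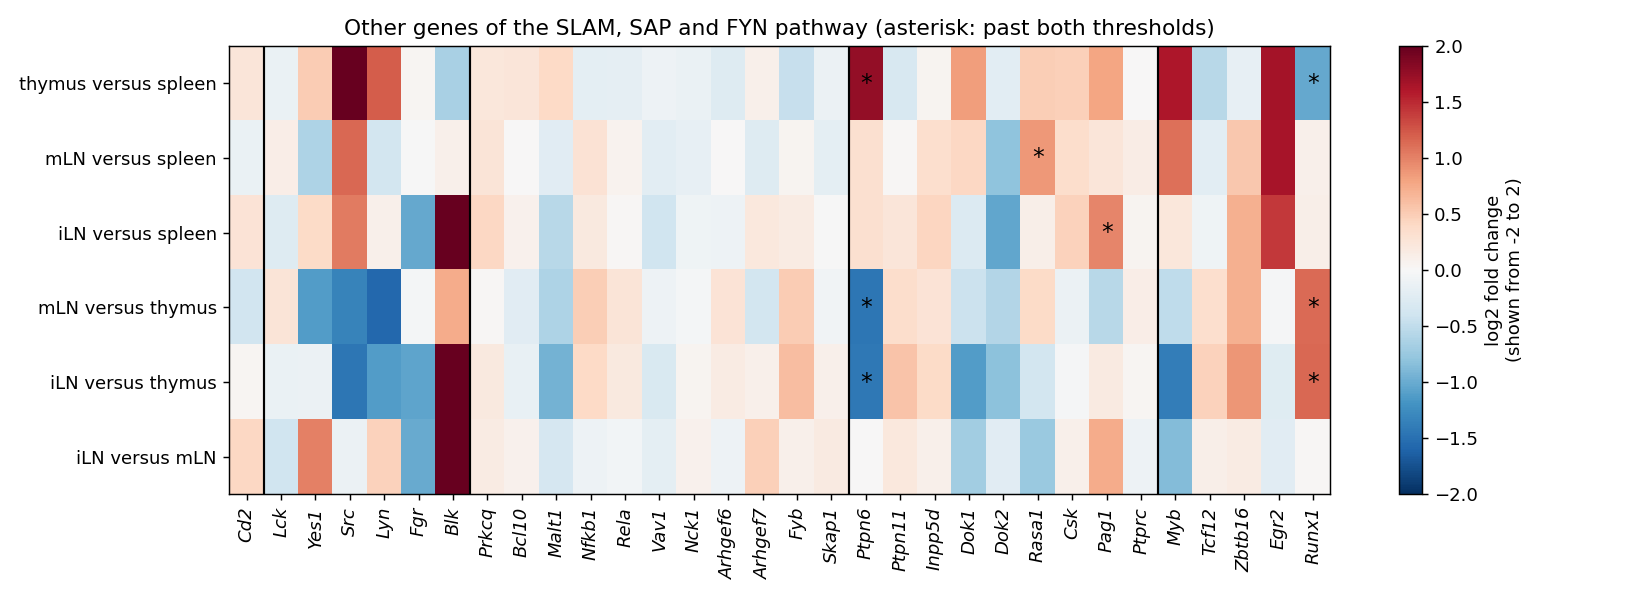
Log2 fold change (colour, shown from −2 to 2) of the other pathway genes that passed the filter in the 6 pairs of tissues; black lines separate the lists and asterisks mark genes past both thresholds. *Ptpn6* and *Runx1* carry asterisks in the 3 comparisons with thymus; *Cd244a* is left out because its counts outside the thymus were near 0.

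The differences of *Slamf6* and *Slamf7* were set against their neighbours in the genome. The cluster holds 49 annotated genes of the tables, 9 of them SLAM family genes. Of the 40 others, 18 passed the filter and edgeR called 0 in each comparison, against 0.471% to 3.38% of all genes, by comparison. At such shares, 0 of 18 does not set these neighbours apart from other genes. DESeq2 called *Pea15a* in mLN against thymus, where it called 414 of 13600 genes. At most 3 of the 18 had an unadjusted p under 0.05 in any comparison, against 10.6% to 19.4% of all genes, by comparison. On the chromosome, *Slamf7* and *Slamf6* flank *Cd48*, *Slamf1* and *Cd84*, none of which edgeR called.

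Genes with a pattern most like each member were sought among the 10146 genes whose mean reached 5 CPM, by Pearson's r of log2 CPM over the 15 samples after removal of the batch difference. These r are descriptions over samples that share libraries, batches and tissues. *Slamf6* was closest to *Ccr9*, a receptor for the chemokine CCL25 (r = 0.902), and *Dtx4* (0.889). *Slamf7* was closest to *Nedd4* (0.952) and *Myo6* (0.933). *Slamf1* was closest to *Mansc1* (0.944) and *Hipk1* (0.912), and *Cd84* to *Hif1a* (0.895) and *Ly6c1* (0.862). For *Cd48* the closest were *Sulf2* (0.884) and *Hypk* (0.866), for *Sh2d1a* *Ubac1* (0.895) and *Cmya5* (0.889), for *Fyn* *Usp30* (0.848) and *Inpp4a* (0.831), and for *Ly9* *Myo3b* (0.836) and *Ddit3* (0.826). No member was among the closest genes of another.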

How the data were processed

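RNAseq of sorted iNKT cells from 15 samples was analysed. The authors trimmed reads with Cutadapt 1.7.1 and ran RSEM 1.2.31 with Bowtie2 2.2.9 on GRCm38.p6. The deposited expected counts are RSEM's estimated counts of fragments per gene, with multiply aligned fragments divided among their genes. The deposited TPM divide these by effective length and scale each sample to the same sum. Gene length columns were used for mean transcript lengths. Deposited FPKM were not used.

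Symbols and positions came from GENCODE M21. Expected counts were rounded, genes were filtered with filterByExpr, libraries were scaled with TMM (factors 0.755 to 1.18), and tissue and batch were fitted with edgeR 4.0.16 (limma 3.58.1, R 4.3.3; quasi-likelihood, robust), with Benjamini-Hochberg adjustment over 13600 genes and the thresholds of the study's methods. The script was tested on simulated data. DESeq2 1.42.0 was an alternative, with other scaling, filters, covariates, sample sets and depths. Within-batch values are differences of mean log2(CPM + 1), and iLN had 1 sample in the second batch.

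The members and lists were chosen with earlier results of these data known. Named beyond the members were list genes called in any comparison, or else the 2 with the lowest p over 4 tissues, and the 2 genes most like each member; *Pea15a* and list genes named as not called were chosen after values were seen. A few list and marker genes are not reported here and were left out of the lists. Same-numbered samples of different tissues carried the same unit label. They deviated together in 15 of 21 pairs (r over 0.1) and other samples of the same batch in 16 of 21. Batch was not removed before these r, so they do not separate shared units from shared batches. Replicate numbers were not taken as pairs in the main fit, and a fit with a replicate block is given below.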

Additional observations from a re-analysis of the deposited data

Results flagged for a closer look

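*Slamf1* in thymus replicate 1 (40.9 normalized CPM) lay far above the other 3 thymus samples (16.9 to 18.5), with a gap of 0.935 of the range of the group, above Dixon's 95% critical value for 4 samples. The test was made in 24 groups of 4 samples, the 8 genes in thymus, spleen and mLN, and chance flags about 1 in 20 such groups. Without this sample *Slamf1* passed the thresholds for thymus against spleen (log2 fold change −1.45, edgeR adjusted p = 0.00819).

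The change of *Slamf6* against spleen differed between the lymph nodes. It was 1.45 in mLN and −1.12 in iLN, and the difference itself, iLN against mLN, was −2.57 on the log2 scale (SE 0.28, edgeR adjusted p = 6.21e-05), with all 3 iLN samples below all 4 mLN samples.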

How the results depend on the processing

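The log2 fold changes of members with an unadjusted p under 0.05 (26, none of them of *Ly9*) and of other list genes that were called (11) were followed through 22 or 23 alternatives, and none of these reversed. For the members, 540 values kept their side of the thresholds, 41 lost the call and 13 gained it. For the other list genes, 190 kept the call and 60 lost it. The counts of called genes among the 8 moved as follows. With DESeq2, thymus against spleen, iLN against spleen and iLN against thymus each gave 2. The test over 4 tissues gave 3, with *Slamf1* added, with DESeq2, with no filter and at adjusted p under 0.05. With no filter on low counts, thymus against spleen, iLN against spleen and lymph nodes against spleen and thymus each gave 2. With at least 10 counts in every sample, thymus against spleen gave 1 and iLN against spleen 2. With no batch covariate, mLN against spleen gave 0. With only the 2 tissues compared, mLN against spleen and iLN against spleen gave 0. With libraries thinned to the smallest, mLN against spleen gave 1, mLN against thymus 1, iLN against spleen 0 and iLN against thymus 0. At adjusted p under 0.05 with no limit on the fold, thymus against spleen, iLN against spleen, iLN against thymus and lymph nodes against spleen and thymus each gave 2. Leaving out 1 library at a time gave 0 to 1 for thymus against spleen, 0 to 2 for mLN against spleen, 0 to 2 for iLN against spleen, 1 to 2 for mLN against thymus, 0 to 1 for iLN against thymus, and 1, 1 and 2 for iLN against mLN, lymph nodes against spleen and thymus, and 4 tissues. The cause was not tested, except that fewer samples or counts entered some of these fits. RLE scaling moved none of these counts.

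A fit with a replicate block instead of the batch term gave counts of 0, 2, 1, 2, 1, 1, 1 and 2 in the order of the comparisons (thymus, mLN and iLN against spleen, mLN and iLN against thymus, iLN against mLN, lymph nodes, 4 tissues), and no call of a member changed, while *Rasa1* (mLN against spleen, adjusted p = 0.0105) and *Dok2* (lymph nodes, 0.0124) lost theirs. Over all genes the block gave 70 calls for mLN against spleen in place of 89. DESeq2 gave 387 for thymus against spleen (179 with edgeR), 248 for mLN against spleen (89), 556 for iLN against spleen (211), 414 for mLN against thymus (217), 472 for iLN against thymus (204), 276 for iLN against mLN (64), 478 for lymph nodes (234) and 1002 over 4 tissues (459). With no filter these were 393, 273, 544, 435, 480, 279, 532 and 1134. With no batch covariate, mLN against spleen had 29, iLN against spleen 129, iLN against thymus 123 and iLN against mLN 40. With only the 2 tissues compared, thymus against spleen had 313, mLN against spleen 17, iLN against spleen 86 and iLN against mLN 20. At adjusted p under 0.05 the 8 counts were 353, 186, 530, 388, 468, 183, 579 and 894. Thymus replicate 2 was the least deep library, and after thinning to its depth, with 10600 genes tested, they were 86, 21, 83, 91, 93, 40, 97 and 224.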
